A study of Solanum lycopersicum with 18 samples.

Results

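The nuclear genes for plastid-type ribosomal proteins were taken as those whose deposited protein name held "30S ribosomal" or "50S ribosomal", the names for proteins of the small and the large subunit of a bacterial-type ribosome. Of 23808 tomato genes in the table, 46 had such a name, and all 46 reached 1 FPKM (fragments mapped to a transcript, divided by its length and by the library's mapped total) in at least 3 of the 18 leaf libraries, the minimum that 18402 genes met. The 3 genes named mitochondrial are described apart, which leaves 43 genes, 13 of the 30S and 30 of the 50S subunit. Of these 43 names, 39 say chloroplastic or plastid, and 4 give no organelle (LOC101245144 for S1, LOC101260136 for S13, LOC101268800 for L18 and LOC101244639 for L27). The names are the submitters' protein matches, and no sequence was analysed here. The 43 genes lie on all 12 chromosomes, with 2 to 6 on each, and 0 of them lie on the plastid genome. The genome build is not given in the sources used here, so positions below are those of the deposited table.

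Plastids keep a ribosome of bacterial descent, which translates the few proteins that plastid DNA still encodes, among them core subunits of both photosystems and the large subunit of Rubisco. Its RNAs and a minority of its proteins are encoded in the plastid. The larger number of its proteins are encoded in the nucleus, translated in the cytosol and imported, and a few of these plastid-specific proteins have no counterpart in Escherichia coli.

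Leaves of Micro-TOM, a dwarf tomato cultivar, and of Micro-TOM-EX were sampled at 0 h, 2 h and 8 h of NaCl treatment, with 3 libraries for each of the 6 groups. Plants of all groups grew in soil in a greenhouse, and no other agent or introduced allele is named. The sources used here give neither the salt dose nor what sets Micro-TOM-EX apart from Micro-TOM. No untreated leaves of the later hours were analysed here, so the salt and the time of day cannot be told apart. The labels do not say that libraries came from separate plants, so p-values measure the spread between these libraries, which may be technical. In whole leaves, fewer cells of a type and less RNA per cell cannot be told apart.

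Summed FPKM was 713443 to 778924 per library, and library read depth is not given in the sources used here. All-gene correlations were 0.965 to 0.993 between libraries of a group. The median gene lay lower at 2 h than at 0 h by 0.31 in Micro-TOM and by 0.37 in Micro-TOM-EX on the log2(FPKM + 1) scale, so counts are also given after median-ratio scaling of the libraries, which left shifts of -0.03 and -0.02. The 30 mesophyll marker genes were for Rubisco small subunit, chlorophyll-binding proteins and carbonic anhydrase. Of these, 25 are also among the 57 photosystem and light-harvesting genes described below, so the 2 lists are not independent. All 30 were above 0 in every library, and their summed level was lower at the later hours. In Micro-TOM it went from 30184 to 44243 FPKM at 0 h to 10818 to 17674 at 2 h and 6820 to 18714 at 8 h. In Micro-TOM-EX it was 43859 to 46546, then 12103 to 32222, then 7023 to 16967. Both root markers were near 0 (summed 0.21 to 3.35 FPKM), while 16 epidermis and cuticle genes summed to 394 to 589 FPKM at 0 h and 1956 to 2674 at 8 h in Micro-TOM. The part of these shifts in the results below was not tested.

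The median of the 43 genes' mean levels over all 18 libraries was 55.1 FPKM, against 12.04 FPKM for all 18402 genes, and 4 genes lay below that all-gene median (S1 of LOC101245144, 50S protein 5 alpha, L17 of LOC101267247 and rps16). The highest level was that of LOC101256124, for L1, which in bacteria forms a mobile stalk that escorts spent tRNA off the ribosome. It stood at 690.0, 556 and 617 FPKM in the Micro-TOM libraries at 0 h and at 599.7, 542 and 579 in Micro-TOM-EX, so the 2 materials overlapped. LOC101248220, one of 2 genes for L13, which binds early in assembly of the bacterial large subunit, stood at 426, 438 and 399 FPKM in Micro-TOM. LOC101264910, for S17, which binds rRNA in the bacterial small subunit, stood at 241, 287 and 242 FPKM. The lowest were LOC101259205 (50S protein 5 alpha), LOC101245144 (S1) and LOC101267247 (L17), at 2.30 to 2.64, 2.06 to 2.59 and 8.11 to 11.9 FPKM in Micro-TOM at 0 h. Each shared its subunit and protein number with a second gene at a higher level.

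The summed level of the 43 genes dropped early and stayed low. In Micro-TOM it was 5270.0, 6226 and 5264 FPKM at 0 h, 1511, 1646 and 1964 at 2 h and 2398, 2309 and 1943 at 8 h. In Micro-TOM-EX it was 5787, 7189.6 and 5796 FPKM at 0 h, 2146, 1178 and 1399 at 2 h and 2030.4, 2005 and 2109.5 at 8 h. Every library at 2 h and 8 h lay below every library at 0 h in both materials. Library number 2 was the highest at 0 h in both, and Micro-TOM-EX number 1 was the least reduced at 2 h, with the highest mesophyll sum of its group (32222 FPKM). As a share of all FPKM, the 43 genes made up 0.717 to 0.814% in Micro-TOM at 0 h, 0.212 to 0.268% at 2 h and 0.259 to 0.326% at 8 h. The same share was 0.761 to 0.923% in Micro-TOM-EX at 0 h, 0.156 to 0.291% at 2 h and 0.261 to 0.277% at 8 h.

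**Figure D1:**
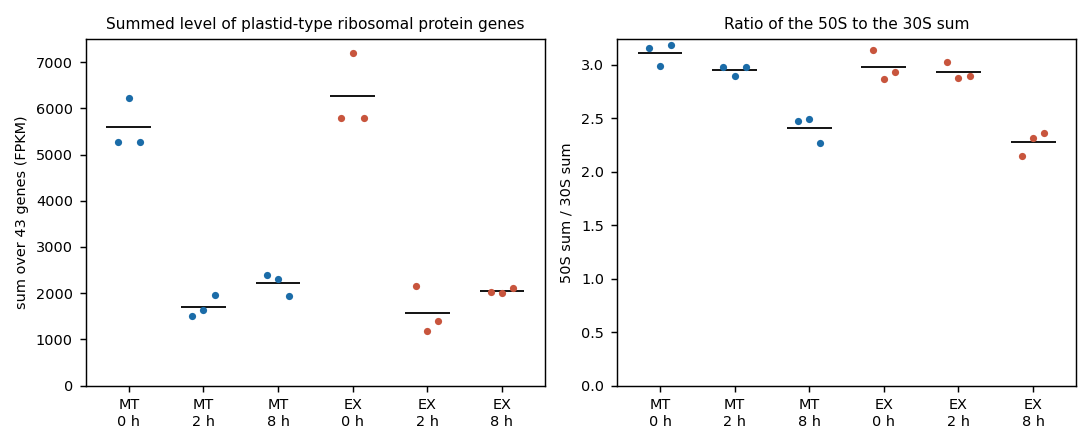
Left, summed FPKM of the 43 plastid-type ribosomal protein genes in each of the 18 libraries, by material and hour, with bars at group means. Right, the 50S sum divided by the 30S sum in the same libraries. All sums at 2 h and 8 h lie below all sums at 0 h, and all 8 h ratios (2.15 to 2.49) lie below all 0 h and 2 h ratios (2.86 to 3.18).

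At 2 h, genes of both subunits were lower. In Micro-TOM, 43 of 43 fell and 0 rose (limma on log2(FPKM + 1), adjusted p under 0.05 over all 18402 genes), where 47.5% of all genes tested fell and 27.5% rose. The median change was -1.86, with -1.81 for the 13 genes of 30S and -1.90 for the 30 of 50S. After median-ratio scaling 41 fell and 0 rose, with a median of -1.50, where 36.8% of all genes fell and 35.6% rose. The authors' deposited table also has 41 lower and 0 higher, with 34.6% and 35.0% of all genes. In Micro-TOM-EX, 41 fell and 0 rose with a median of -2.06, where 49.2% of all genes fell and 26.7% rose, and 41 fell after scaling, where 37.5% of all genes fell and 36.1% rose. The authors' deposited table has 41 lower and 0 higher, with 32.9% and 34.7% of all genes. The other 2, rps16 (S16) and LOC101245144 (S1), changed by -0.01 and 0.01. The 0 h and 2 h libraries did not overlap for 43 genes in Micro-TOM and 41 in Micro-TOM-EX, as was so in the lower direction for 49.1% and 49.8% of all genes. Relative to its own mean at 0 h, the median gene stood at 26.5% in Micro-TOM (4.14 to 61.2%) and at 24.8% in Micro-TOM-EX (4.29 to 98.9%).

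**Figure D2:**
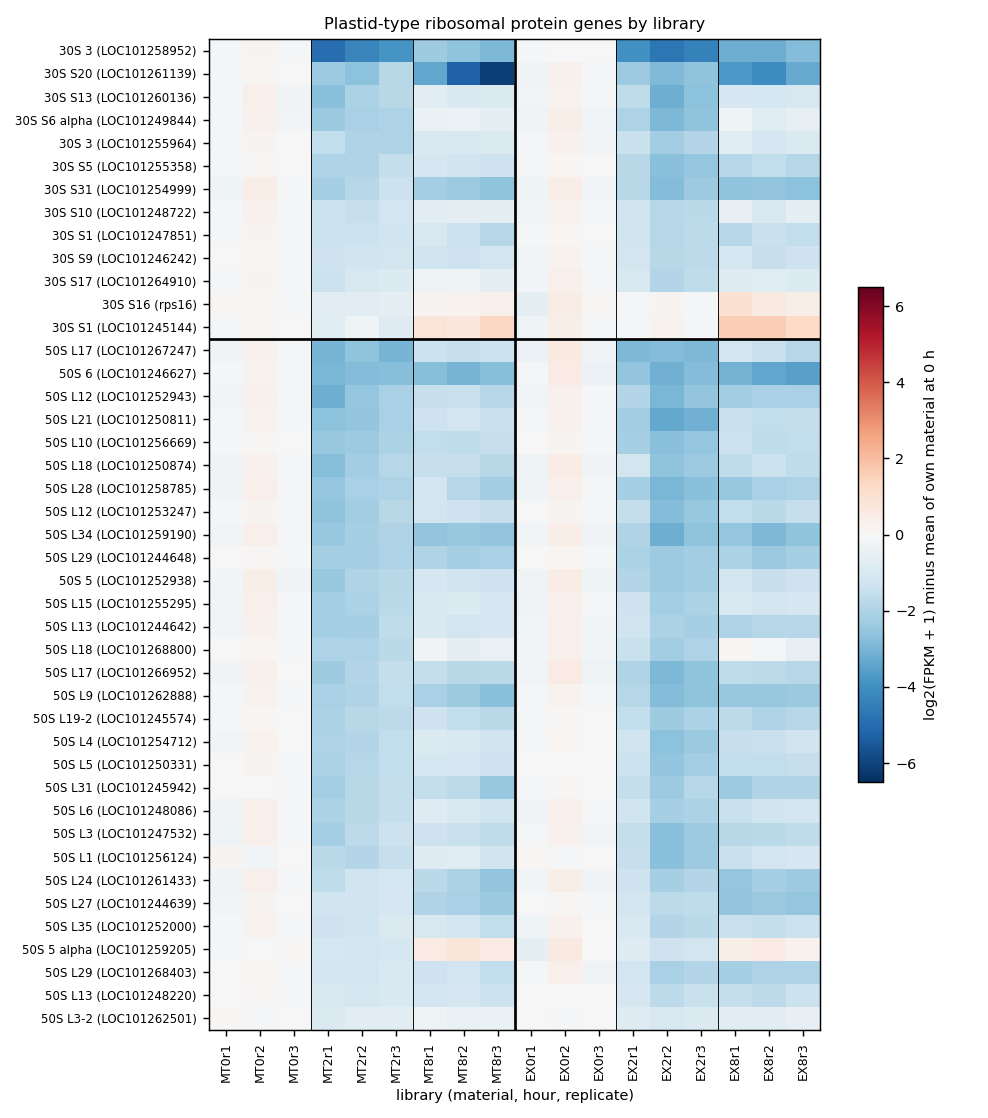
Heat map of the 43 genes (one line each, by subunit) in the 18 libraries. Colour is log2(FPKM + 1) minus the mean of the same material at 0 h. Nearly all lines are below 0 at 2 h and 8 h, with S1 (LOC101245144), S16 (rps16) and 50S protein 5 alpha (LOC101259205) above 0 at 8 h.

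Among small-subunit genes, the largest fall at 2 h was that of LOC101258952, on chromosome 5 from 3767594 to 3769334. It encodes 30S protein 3, a plastid-specific protein that E. coli lacks. Its level was 99.3, 119.3 and 99.8 FPKM at 0 h in Micro-TOM and 2.46, 4.36 and 6.36 FPKM at 2 h. In Micro-TOM-EX it was 117, 125 and 126 FPKM, then 7.19, 3.83 and 4.80. In both materials all 2 h libraries lay far below all 0 h libraries. The log2 changes were -4.37 ± 0.24 (SE, limma adjusted p = 2.9e-10) and -4.34 ± 0.24 (limma adjusted p = 3.0e-10). LOC101249844 (S6 alpha, in bacteria on the platform of the small subunit) went from 75.5, 95.4 and 69.7 FPKM to 14.0, 17.8 and 19.1 in Micro-TOM, a log2 change of -2.18 ± 0.21 (limma adjusted p = 1.8e-07), with no overlap. By percent of the 0 h mean, rps16 changed least in Micro-TOM at 2 h, at 61.2%. On the log2(FPKM + 1) scale the change of LOC101245144 was the smallest, though it stood at 50.5% of its 0 h mean. This gene is one of 2 for S1, which in bacteria holds mRNA on the small subunit. It read 2.06, 2.59 and 2.36 FPKM, then 0.92, 1.77 and 0.85 (log2 change -0.64 ± 0.20, limma adjusted p = 0.011). That call and that of rps16 (14.81, 15 and 12.60 FPKM, then 8.5, 8.47 and 8.97, limma adjusted p = 0.012) were lost after median-ratio scaling, with limma adjusted p of 0.078 and 0.17.

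Among large-subunit genes, LOC101267247, for L17, which lines the mouth of the peptide exit tunnel in bacteria, fell most in Micro-TOM at 2 h. It lies on chromosome 6 from 48453538 to 48455665 and went from 8.11, 11.9 and 9.14 FPKM to 0.30, 0.76 and 0.30, with no overlap (log2 change -2.88 ± 0.23, limma adjusted p = 1.4e-08). The change in Micro-TOM-EX was also -2.88 (limma adjusted p = 1.3e-08), from 9.32, 18.9 and 10.3 FPKM to 0.78, 0.85 and 0.78. LOC101246627, for the plastid-specific 50S protein 6, lies on chromosome 4 from 62077622 to 62078157. It fell from 49.2, 62.7 and 51.8 FPKM to 6.07, 6.89 and 7.07 (log2 change -2.85 ± 0.20, limma adjusted p = 4.1e-09), again with no overlap.

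Both genes of the L12 stalk, which in bacteria recruits translation factors, fell as well. The lower copy, LOC101252943, went from 88.2, 121.8 and 93.5 FPKM to 10.3, 16.7 and 22.7 in Micro-TOM (log2 change -2.59 ± 0.26, limma adjusted p = 2.3e-07). LOC101256669, for L10, which anchors that stalk in bacteria, went from 100.9, 112.3 and 106.0 FPKM to 18.4, 20.2 and 24.4 (log2 change -2.29 ± 0.13, limma adjusted p = 5.2e-10). For neither gene did the 2 hours overlap. LOC101250811, for L21, an rRNA-binding protein on chromosome 6 from 40806769 to 40809939, fell by 2.44 in Micro-TOM and by 2.90 in Micro-TOM-EX on the log2 scale (limma adjusted p = 5.4e-08 and 7.4e-09). The smallest change of a large-subunit gene in Micro-TOM, looked up after the values were seen, was that of LOC101262501 (L3-2), from 35.4, 32.5 and 34.3 FPKM to 17.4, 20.3 and 20.1 (log2 change -0.79 ± 0.09, limma adjusted p = 1.2e-06).

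At 8 h, most genes were still below 0 h. In Micro-TOM, 37 of 43 were lower and 2 higher with a median of -1.34, where 33.6% of all genes tested were lower and 37% higher. In Micro-TOM-EX, 39 were lower and 2 higher with a median of -1.55, where 35.8% of all genes were lower and 35.5% higher. Scaling gave 40 lower and 2 higher in Micro-TOM (34.9% and 35.4% of all genes), and 39 lower and 2 higher in Micro-TOM-EX (34.8% and 36.2%). In the authors' deposited table, 40 were lower and 1 higher in Micro-TOM (34% and 33.7% of all genes), and 39 lower and 1 higher in Micro-TOM-EX (33.7% and 34.1%). The 0 h and 8 h libraries did not overlap for 40 lower and 3 higher genes in Micro-TOM (34.9% and 38.5% of all genes), and for 39 lower and 1 higher in Micro-TOM-EX (37.7% and 37%). The 8 h and 2 h comparisons share the same 0 h libraries. By subunit, 9 of 13 genes of 30S and 28 of 30 of 50S were lower in Micro-TOM, with medians of -1.0 and -1.41, and 11 of 13 and 28 of 30 in Micro-TOM-EX, with medians of -1.09 and -1.60. The median gene stood at 38.9% of its 0 h mean in Micro-TOM and at 32.2% in Micro-TOM-EX.

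The deepest fall at 8 h was that of LOC101261139, for S20, which binds the rRNA of the small subunit in bacteria. It lies on chromosome 7 from 65506271 to 65509511. Its level in Micro-TOM was 64.8, 76.8 and 68.1 FPKM at 0 h, 12.6, 10.3 and 19.5 at 2 h, and 5.75, 0.87 and a listed 0 at 8 h. In Micro-TOM-EX it was 68.5, 98.9 and 75.7 FPKM, then 15.01, 9.97 and 12.07, then 5.12, 3.79 and 7.36. The 3 hours did not overlap in either material, and the spread among the 3 Micro-TOM libraries at 8 h was wide. Log2 changes from 0 h to 8 h were -4.92 ± 0.47 in Micro-TOM (limma adjusted p = 1.3e-07) and -3.70 ± 0.47 in Micro-TOM-EX (limma adjusted p = 3.2e-06). From 2 h to 8 h, Micro-TOM changed by -2.66 (limma adjusted p = 0.00011, q = 0.092 in the authors' deposited table) and Micro-TOM-EX by -1.08 (limma adjusted p = 0.052).

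Other genes also stayed near or below their 2 h level. LOC101246627 (50S protein 6) stood at 6.98, 5.87 and 6.98 FPKM at 8 h in Micro-TOM and at 9.26, 7.36 and 6.52 in Micro-TOM-EX. Its changes from 0 h were -2.86 and -3.31 (± 0.20 in both, limma adjusted p = 3.7e-09 and 7.3e-10). LOC101254999, for the small plastid protein S31, went from 103, 167 and 112 FPKM to 27.1, 33.6 and 46.3 and then 26.27, 23.05 and 19.49 in Micro-TOM. At 8 h it was 2.40 lower than at 0 h on the log2 scale (limma change -2.40 ± 0.26, adjusted p = 6.7e-07) and all its 8 h libraries lay below all 2 h libraries. LOC101259190 (L34, one of the smallest proteins of the bacterial large subunit) stood at 16.48, 17.97 and 16.47 FPKM at 8 h against 91.6, 130.2 and 93.8 at 0 h, a change of -2.55 ± 0.25 (limma adjusted p = 1.9e-07).

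A few genes went the other way at 8 h. LOC101245144 (S1), on chromosome 12 from 66381464 to 66386519, stood at 5.02, 4.43 and 7.47 FPKM in Micro-TOM and 7.40, 7.17 and 5.67 in Micro-TOM-EX, above every library of its own material at 0 h and 2 h. It rose by 0.97 ± 0.20 (limma adjusted p = 0.00053) and by 1.5 ± 0.20 (limma adjusted p = 7.3e-06). LOC101259205 (50S protein 5 alpha) fell from 2.30, 2.49 and 2.64 FPKM to 0.59, 0.49 and 0.59 at 2 h in Micro-TOM and stood at 4.0, 5.07 and 3.97 at 8 h, above all 0 h libraries. Its rise from 0 h, 0.62 ± 0.22 (limma adjusted p = 0.019), was lost without Micro-TOM 0 h number 1 (limma adjusted p = 0.053) or 8 h number 2 (0.075). In Micro-TOM-EX its change was 0.38 (limma adjusted p = 0.13), and 0.0056 was the limma adjusted p without 0 h number 2, whose 4.54 FPKM exceeded every 8 h library.

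The gene rps16 encodes S16, which helps assembly of the small subunit in bacteria, and lies on chromosome 7 from 3593790 to 3596745. In Micro-TOM it returned from 8.47 to 8.97 FPKM at 2 h to 15.90, 16.68 and 18.03 at 8 h, against 14.81, 15 and 12.60 at 0 h (log2 change from 0 h 0.24, limma adjusted p = 0.32). In Micro-TOM-EX it read 4.44, 10.6 and 7.80 FPKM at 0 h, 6.65, 8.39 and 6.64 at 2 h and 15.2, 11.3 and 9.62 at 8 h, where the 0 h and 8 h ranges overlap. The change of 0.64 ± 0.21 (limma adjusted p = 0.013) was lost without 0 h number 1 (0.087) and without 8 h number 1 (0.074).

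**Figure D3:**
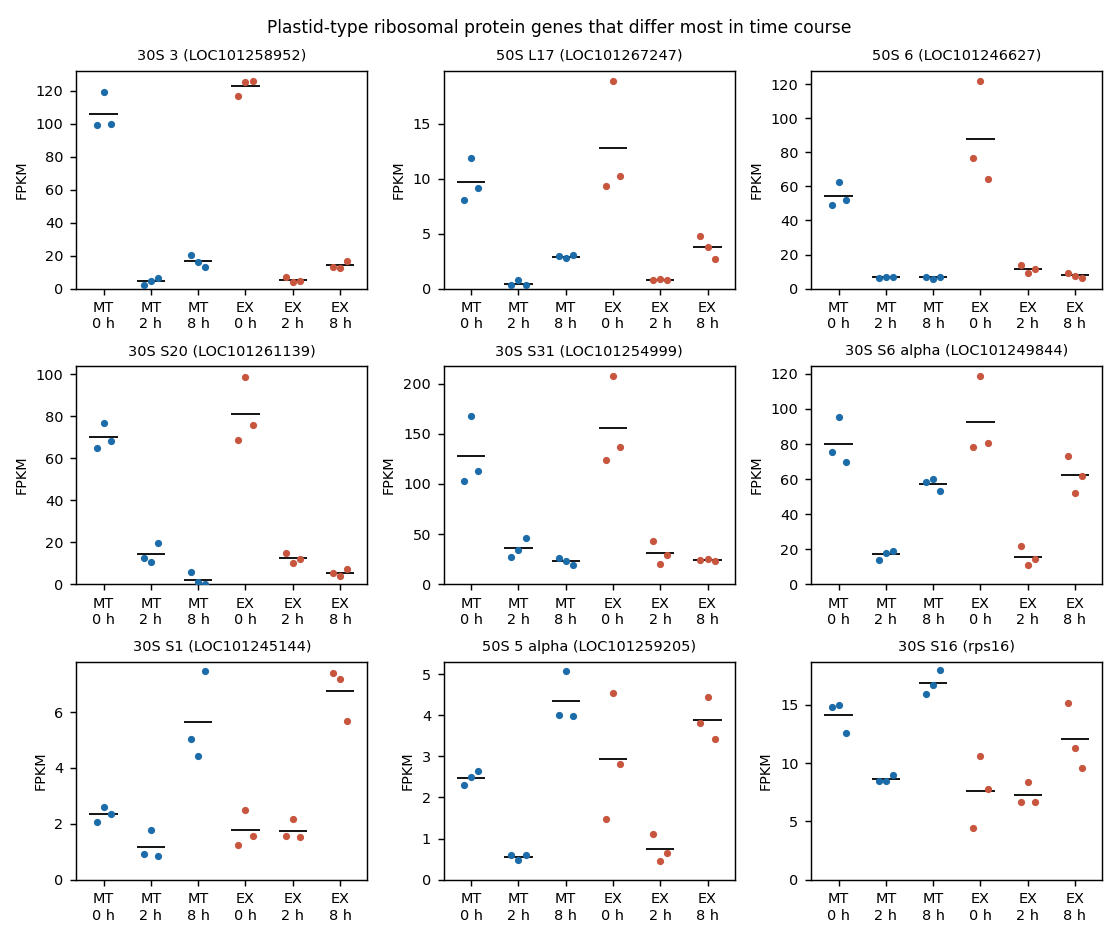
FPKM of 9 genes in each library, by material and hour, with bars at group means and a separate vertical scale for each gene. S20 and 50S protein 6 are lowest at 8 h or level with 2 h, S6 alpha is at 71.3% (Micro-TOM) and 67.3% (Micro-TOM-EX) of its 0 h mean at 8 h, below all its 0 h libraries, and S1 is highest at 8 h in both materials.

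From 2 h to 8 h, the counts of the 43 genes lay closer to those of all genes than in the comparisons with 0 h. In Micro-TOM, 24 of 43 rose and 3 fell with a median of 0.70, where 46.0% of all genes tested rose and 23.7% fell. In Micro-TOM-EX, 23 rose and 2 fell with a median of 0.50, where 45.3% of all genes rose and 23.7% fell. All genes together had medians of 0.30 and 0.29 in these comparisons. After median-ratio scaling the counts were 14 higher and 12 lower in Micro-TOM (32.1% and 34.8% of all genes) and 12 higher and 11 lower in Micro-TOM-EX (32.4% and 34.1%), so the number of risers depends on the scaling, and the scaled counts of risers are near the all-gene shares. In the authors' deposited table, 19 were higher and 9 lower in Micro-TOM (32.1% and 32.9% of all genes), and 11 higher and 8 lower in Micro-TOM-EX (30.1% and 32.0%). Without Micro-TOM-EX 2 h number 1, the count in that material was 29 higher (45.0% of all genes in that fit), and leaving out single libraries gave 17 to 29.

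The 10 genes that rose in both materials under both scalings were S1, S6 alpha, S13, both genes of 30S protein 3, L10, L17 (LOC101267247), L18 (LOC101268800), L21 and 50S protein 5 alpha. The share of all genes that met these joint conditions is not given here, so the 10 are a list and not an excess. S6 alpha rose from 14.0, 17.8 and 19.1 FPKM to 58.2, 60.1 and 53.1 in Micro-TOM (log2 change 1.71 ± 0.21, limma adjusted p = 3.6e-06). In Micro-TOM-EX it rose from 21.6, 11.1 and 14.2 FPKM to 73.3, 52.0 and 61.5 (1.96 ± 0.21, limma adjusted p = 7.8e-07). Against 0 h it was then -0.47 in Micro-TOM (limma adjusted p = 0.061) and -0.55 in Micro-TOM-EX (limma adjusted p = 0.031), a call lost without 0 h number 2, 8 h number 2 or 8 h number 3. Its 8 h libraries lay below its 0 h libraries in both materials, and after median-ratio scaling both changes passed (-0.52 in each, limma adjusted p = 0.027 in each).

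LOC101268800, for L18, which in bacteria joins the smallest rRNA to the large subunit, rose from 6.02, 6.04 and 7.62 FPKM to 23.2, 17.4 and 19.4 in Micro-TOM. In Micro-TOM-EX it went from 11.52, 5.98 and 7.27 FPKM to 35.2, 29.4 and 22.4 (log2 change 1.72 ± 0.21, limma adjusted p = 2.6e-06), which overlaps the 28.8, 42.1 and 28.8 FPKM of 0 h. L10 rose by 0.72 and 0.92 (both ± 0.13, limma adjusted p = 0.00016 and 1.3e-05) and still stood below all its 0 h libraries. 30S protein 3 (LOC101258952) rose by 1.74 in Micro-TOM (limma adjusted p = 8.4e-06), to 20.2, 16.2 and 13.1 FPKM.

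L27 (LOC101244639), which in bacteria reaches toward the peptidyl transferase centre, was the 1 gene called lower at 8 h than at 2 h in both materials under both scalings. The all-gene share for this joint condition is not given here either. S20, described above, was also lower without overlap in both materials but missed the threshold in Micro-TOM-EX as deposited. The Micro-TOM libraries of L27 read 264, 339.8 and 299 FPKM at 0 h, 123.02, 123.5 and 142.0 at 2 h and 76.9, 67.8 and 55.1 at 8 h. Its Micro-TOM-EX libraries read 344, 363.8 and 332, then 153, 106 and 111, then 58.1, 64.5 and 59.8. None of the hours overlapped, and the log2 changes from 2 h to 8 h were -0.96 ± 0.15 and -0.99 ± 0.15 (limma adjusted p = 2.5e-05 and 1.8e-05). L27 was singled out after its values were seen.

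**Figure D4:**
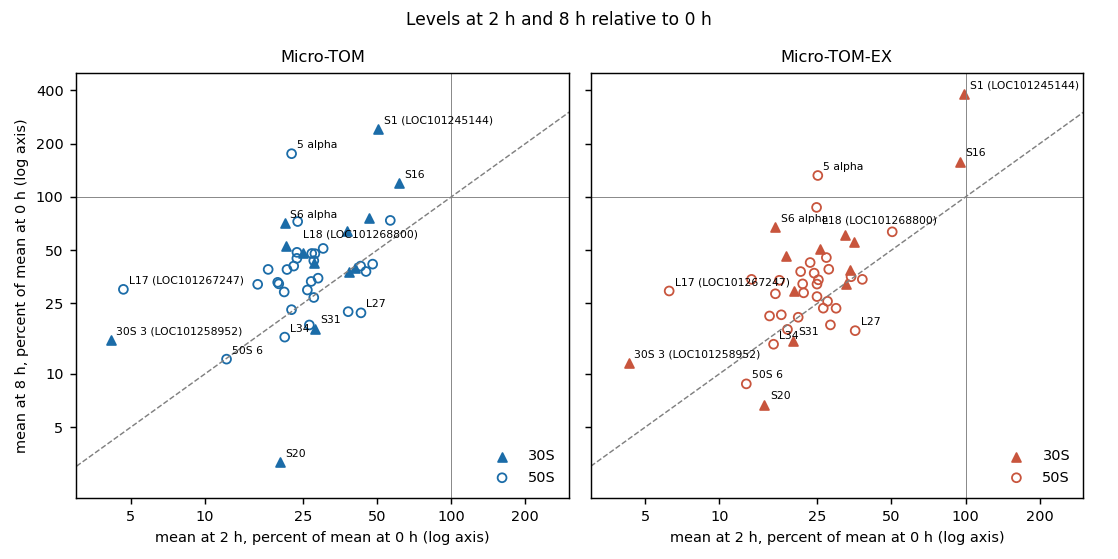
Mean FPKM at 8 h against mean FPKM at 2 h, each as a percentage of the gene's own 0 h mean, for the 43 genes in Micro-TOM (left) and Micro-TOM-EX (right), both axes on a log scale. Triangles are 30S and circles 50S genes, and the dashed line marks equal percentages. Genes lie on both sides of the line, and 3 genes per material exceed 100% at 8 h.

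By summed level, the ratio of the subunits was lower at 8 h than before. The summed 50S level was 3.16, 2.99 and 3.18 times the summed 30S level in the Micro-TOM libraries at 0 h, 2.98, 2.89 and 2.97 times at 2 h and 2.47, 2.49 and 2.27 times at 8 h. The ratio in Micro-TOM-EX was 3.14, 2.86 and 2.93 at 0 h, 3.03, 2.87 and 2.90 at 2 h and 2.15, 2.32 and 2.36 at 8 h. Every 8 h library had a lower ratio of sums than every 0 h or 2 h library. With each gene weighted equally, the timing differed. The mean log2(FPKM + 1) of 50S genes minus that of 30S genes was 0.42 to 0.48 at 0 h in Micro-TOM, 0.29 to 0.37 at 2 h and 0.19 to 0.32 at 8 h, so it was already lower at 2 h, and the 2 h and 8 h ranges overlap. In Micro-TOM-EX it was 0.52 to 0.62, then 0.33 to 0.49, then 0.07 to 0.19, with no overlap between hours. These are descriptions with no test, and FPKM sums are not protein amounts.

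In 9 pairs, the genes shared a protein name and number, and in several the share of the lower copy differed between hours without overlap. The pairs rest on names alone, and LOC101245144 (S1) and LOC101268800 (L18) name no organelle. Whether the 2 genes of a pair encode the same plastid protein was not tested. Reads of near-identical copies may be split between them by the authors' estimation, so single-copy values are less certain than sums over a pair. For 30S protein 3, the lower copy LOC101255964 gave 20.2 to 21.3% of the pair's FPKM in Micro-TOM at 0 h, 49.4 to 77.5% at 2 h and 39.7 to 51.2% at 8 h. In Micro-TOM-EX the share was 17.7 to 23.01%, 59.2 to 61.0% and 48.6 to 57.6%. Every 0 h library had a lower share than every later one in both materials. For S1, LOC101245144 gave 1.32 to 1.56% of the pair at 0 h and 6.07 to 14.4% at 8 h in Micro-TOM, and 0.737 to 1.31% and 9.10 to 13.3% in Micro-TOM-EX. The larger copy, LOC101247851, went from 154, 180.4 and 149 FPKM at 0 h to 77.7, 60.5 and 44.4 at 8 h in Micro-TOM, so the S1 pair as a whole was lower. For 50S protein 5, LOC101259205 gave 1.46 to 2.31% at 0 h and 6.28 to 8.98% at 8 h in Micro-TOM, beside LOC101252938.

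Other pairs shifted toward the copy that was already higher, at least for a time. The L17 genes are neighbours on chromosome 6, and LOC101267247 gave 10 to 10.6% of the pair at 0 h, 1.05 to 3.34% at 2 h and 9.66 to 11.1% at 8 h in Micro-TOM. The L12 genes are neighbours on chromosome 2, where LOC101252943 gave 24.7 to 26.3%, then 18 to 21.3%, then 20.5 to 23.4%. For L29, at the exit of the peptide tunnel in bacteria, the share of LOC101244648 went from 37.2 to 39% to 22.6 to 24.4% at 2 h in Micro-TOM and from 35.3 to 40.7% to 26.4 to 34.8% in Micro-TOM-EX. For L13, LOC101244642 gave 8.72 to 11.3%, then 4.42 to 6.19%, then 8.95 to 11.7% in Micro-TOM. The L18 and L3 pairs shifted toward the lower copy instead. For L18, the share of LOC101268800 was 21.2 to 26.0% at 0 h and 35.6 to 43.6% at 8 h in Micro-TOM. For L3, LOC101262501 gave 25.7 to 36.6% at 0 h and 42.0 to 53.4% at 2 h.

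**Figure D5:**
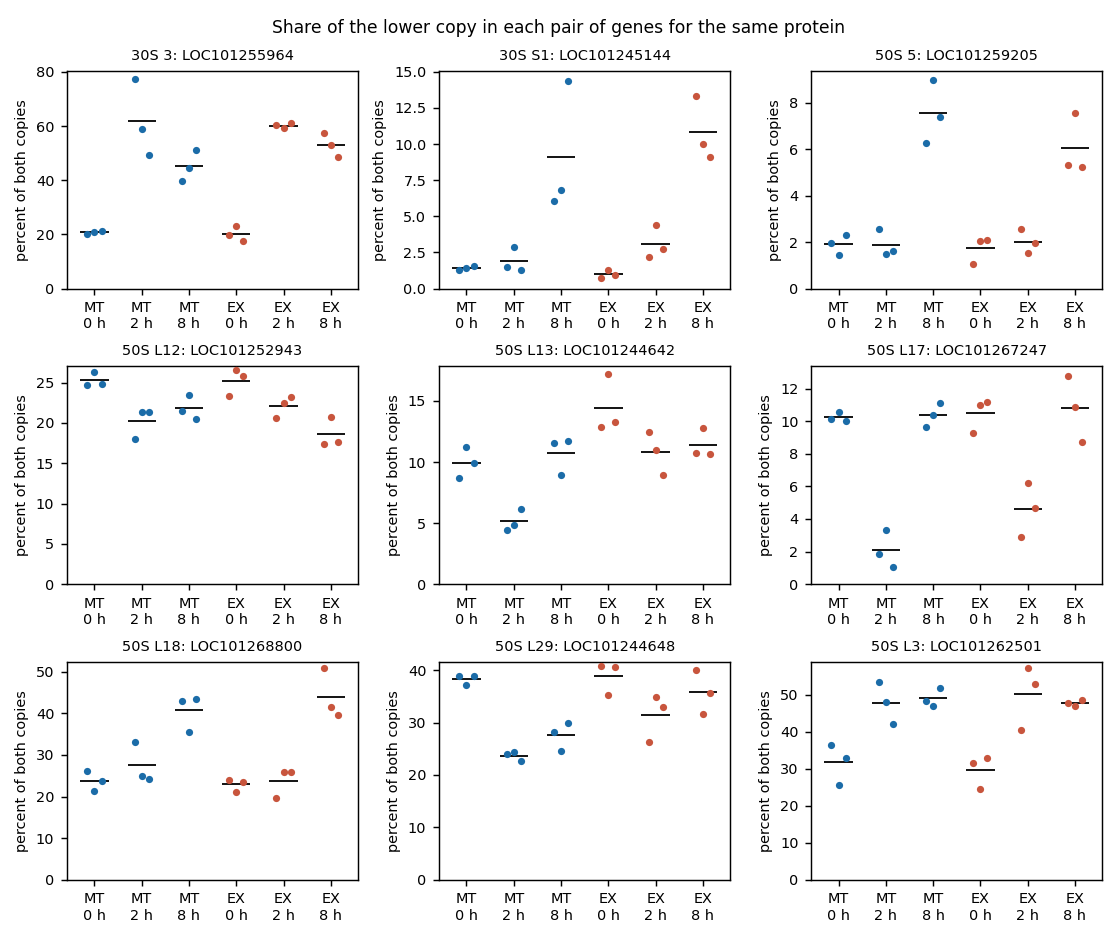
Share of each pair's summed FPKM that came from its lower copy, in percent, for the 9 pairs, by library, with bars at group means. The share of the lower copy of 30S protein 3 rises from near 20% to above 39% in every later library, and that of L17 is lowest at 2 h.

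The materials were set side by side at each hour, to show whether the genes differed between Micro-TOM-EX and Micro-TOM. At 0 h, 0 of 43 were higher and 1 lower in Micro-TOM-EX (limma, with 3 at an unadjusted p under 0.05, and 0 called in the authors' deposited table), where 1.95% and 2.06% of all genes were called, and 1.64% and 2.9% in that table. The 1 gene was rps16, at 4.44, 10.6 and 7.80 FPKM against 14.81, 15 and 12.60, groups that do not overlap (log2 difference -0.88 ± 0.21, limma adjusted p = 0.027). Leaving out any one of Micro-TOM number 1, 2 or 3 or Micro-TOM-EX number 1 or 3 lost that call, and so did a fit of these 6 libraries alone (limma adjusted p = 0.26) and the replicate block within each hour (0.052). The median difference of the 43 genes at 0 h was 0.20. The all-gene shares are for adjusted calls, so the unadjusted counts here and below cannot be read against them.

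At 2 h, 2 of 43 were higher in Micro-TOM-EX and 0 lower, where 6.22% and 7.48% of all genes were called. The count at an unadjusted limma p under 0.05 was 5, with no all-gene share given beside it. The authors' deposited table has 1 higher and 0 lower, with 7.44% and 7.75% of all genes. LOC101244642 (L13) stood at 27.8, 16.2 and 15.4 FPKM against 9.34, 9.76 and 14.0 in Micro-TOM (log2 difference 0.76 ± 0.21, limma adjusted p = 0.023). LOC101246627 (50S protein 6) stood at 13.7, 8.96 and 11.3 FPKM against 6.07, 6.89 and 7.07 (0.67 ± 0.20, limma adjusted p = 0.037). Neither pair of groups overlapped. At 0 h both genes also stood higher in Micro-TOM-EX without overlap, by 0.61 and 0.63 on the log2 scale (limma adjusted p = 0.14 and 0.10). Their change from 0 h to 2 h differed between the materials by 0.16 and 0.03 (limma adjusted p = 0.83 and 0.97). Without Micro-TOM-EX number 1, the library with the highest member sum at 2 h, both calls were lost and 7 other genes were lower in Micro-TOM-EX (L1, L4, L9, L13 of LOC101248220, L21, L29 of LOC101268403 and S5). In that fit 9.22% of all genes were lower and 7.35% higher. The L13 call was also lost without Micro-TOM number 1 or 2, and the 50S protein 6 call without Micro-TOM number 1, 2 or 3 or Micro-TOM-EX number 3.

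At 8 h, 0 of 43 differed by limma (5 at an unadjusted p under 0.05, and 0 in the authors' deposited table), where 0.989% of all genes were higher and 0.679% lower, and 1.91% and 1.31% in that table. The median difference was 0.00, with single genes from -0.52 to 1.43. The size of the change from 0 h also differed between materials for 0 of 43 genes at 2 h (3 unadjusted, 2.74% and 3.74% of all genes) and for 0 at 8 h (2 unadjusted, 0.815% and 0.538% of all genes). Without Micro-TOM-EX 2 h number 1, the 2 h response was more negative in Micro-TOM-EX for 5 genes (L1, L9, L21, L29 of LOC101268403 and S5), where 4.75% of all genes were called in that direction and 3.22% in the other. Without Micro-TOM 8 h number 1, S20 was higher in Micro-TOM-EX at 8 h by 2.19 (limma adjusted p = 0.00096), and its 8 h response differed by 2.00 (limma adjusted p = 0.032), where 0.81% and 0.522% of all genes were called higher.

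Across the 18 libraries, most of the 43 genes varied together. Over the 903 pairs of genes, the median Pearson r of log2(FPKM + 1) was 0.898, from -0.659 to 0.992, with 42 pairs below 0. Within groups, taken as deviations from group means, the median r was 0.707. These libraries share hour, material and scaling, so r is given as a description. No r for other genes is given here, so it is not shown to be particular to these genes. By mean r with the others, the genes least like the rest were LOC101245144 (S1, -0.071), rps16 (0.086), LOC101259205 (50S protein 5 alpha, 0.42), S20 (0.619) and L27 (0.663).

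The 3 genes named mitochondrial had other courses. LOC101250359, for mitochondrial L21, fell from 20.9, 18.6 and 19.9 FPKM at 0 h to 8.77, 8.73 and 9.03 at 2 h in Micro-TOM (log2 change -1.08 ± 0.14, limma adjusted p = 3.7e-06) and stood at 17.6, 15.2 and 19.8 at 8 h, which overlaps 0 h (-0.18, limma adjusted p = 0.27). In Micro-TOM-EX it fell by 0.84 at 2 h (limma change -0.84, adjusted p = 4.6e-05, q = 0.058 in the authors' deposited table). LOC101250551 (mitochondrial S31) read 20.3, 22.5 and 21.3 FPKM at 0 h and 18.04, 21.15 and 20.37 at 2 h in Micro-TOM, ranges that overlap (limma adjusted p = 0.56).

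LOC101260032, named for the mitochondrial ribosomal protein HLP, read 30.8, 24.8 and 29.1 FPKM at 0 h, 33.4, 42.8 and 36.0 at 2 h and 16.7, 17.5 and 19.1 at 8 h in Micro-TOM. Its change at 2 h was 0.39 (limma adjusted p = 0.080; after median-ratio scaling 0.75 and 0.0020), and at 8 h it was lower by limma (-0.64 ± 0.20, adjusted p = 0.0086). In Micro-TOM-EX it was higher at 2 h (0.63, limma adjusted p = 0.0087), a call lost without 0 h number 1 (0.062) and in a fit of the compared groups alone (0.068).

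Other genes of plastid gene expression, in lists picked by name, were mostly lower as well. At 2 h in Micro-TOM, 9 of 10 plastid translation factors fell, as did 3 of 3 genes listed for ribosome assembly and rRNA handling. That list includes an RNA helicase (LOC101250731). So did 18 of 18 plastid aminoacyl-tRNA synthetases and 13 of 15 plastid transcription genes, against the same 47.5% of all genes. The list medians, in that order, were -1.39, -1.56, -1.13 and -1.16. At 8 h the counts lower were 9, 3, 17 and 8, where 33.6% of all genes were lower. In Micro-TOM-EX they were 9, 3, 18 and 13 at 2 h (49.2% of all genes) and 8, 3, 17 and 8 at 8 h (35.8%). Of 29 plastid protease and chaperone genes, 22 were lower at 2 h in both materials, and of 12 further mitochondrial ribosomal protein genes 8 were, against the same 47.5% and 49.2% of all genes. Of 57 photosystem and light-harvesting genes, 25 of them also mesophyll markers, 45 were lower at 2 h and 45 at 8 h in Micro-TOM, against 47.5% and 33.6% of all genes. Of 201 genes listed as cytosolic ribosomal proteins, 62 were lower and 20 higher at 2 h in Micro-TOM, where 47.5% and 27.5% of all genes were. This turned to 18 lower and 81 higher after median-ratio scaling (36.8% and 35.6% of all genes). At 8 h, 114 were lower and 8 higher, where 33.6% and 37% of all genes were. LOC101259499, a 60S L6 named mitochondrial-like, is in both this list and the mitochondrial list, so these lists overlap.

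Among translation factors, infA, for initiation factor IF-1, went from 76.3, 76.0 and 74.4 FPKM to 12.96, 11.92 and 15.91 at 2 h in Micro-TOM and back to 52.8, 53.5 and 53.1 at 8 h. Its 3 hours did not overlap (2 h log2 change -2.40, limma adjusted p = 1.3e-09, and 8 h change -0.50, limma adjusted p = 0.0076). LOC101257065, for the release factor PrfB1, fell by 1.31 on the log2 scale at 2 h (limma change -1.31, adjusted p = 4.4e-08). LOC101268810, for the ribosome-binding factor RbfA, fell by 2.07 (limma change -2.07). LOC101268893, for sigma factor C of the plastid RNA polymerase, went from 25.18, 16.89 and 20.96 FPKM to 1.55, 1.02 and 2.82 (log2 change -3.01, limma adjusted p = 5.0e-08), and read 12.3, 10.5 and 8.48 at 8 h.

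Elongation factor G (LOC101245683), which moves tRNA and mRNA through the ribosome and was picked after its values were seen, kept falling. It read 162.7, 152 and 162 FPKM at 0 h, 78.2, 53.1 and 75.0 at 2 h and 18.8, 19.1 and 13.1 at 8 h in Micro-TOM, with no overlap between hours (8 h against 2 h -1.95, limma adjusted p = 3.6e-07). In Micro-TOM-EX the change from 2 h to 8 h was -1.73 (limma adjusted p = 1.3e-06). Among the ribosomal proteins themselves, S20 and L27 had the same order of hours without overlap in both materials. In Micro-TOM the 8 h libraries of S31, L9, L24 and L29 (LOC101268403) also lay below all their 2 h libraries.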

How the data were processed

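Leaf RNA was sequenced on a BGI instrument, per the labels. The authors deposited FPKM with 2 decimals for 18 libraries, and log2 fold changes, p-values and q-values for their own comparisons. The tools named, per the submitters' processing notes, are RSEM (1.2.12) with Bowtie2 (2.2.5), HISAT2 (2.0.4) and DESeq2 (1.4.5). No counts were used here, so the planned test for normalized values served. It was limma 3.58.1 (R 4.3.3) on log2(FPKM + 1), over 6 groups and 18 libraries, with a mean-variance trend and Benjamini-Hochberg adjustment over 18402 genes with 1 FPKM in 3 libraries. The threshold was 0.05. The procedure was tested on simulated data. Alternatives were another scaling, filter and pseudocount, fits of the compared groups, a replicate block, single libraries left out, a 2-fold minimum and narrower or wider member sets.

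Members and gene lists were chosen with earlier results of these data known. Genes were named by rule: per comparison with 0 h, the 5 largest falls and rises among members reaching 5 FPKM and all opposite calls; up to 4 smallest adjusted p in other comparisons; the 3 highest and 3 lowest levels; mitochondrial names; and up to 2 genes per list. Some exceptions are marked in the text. Several genes of the pairs, and genes that appear only in lists of calls, were named outside the rule without a mark. The subunit ratios, pair shares and correlations were not among the planned comparisons. Chromosome accessions and names were checked against the RefSeq SLM_r2.1 table. Same-number libraries deviated together most between materials at 0 h, for numbers 1 and 2 (correlations 0.476 and 0.439, with 0.127 for number 3). In the other comparisons the correlations were -0.378 to 0.215.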

Additional observations from a re-analysis of the deposited data

How the results depend on the processing

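Median-ratio scaling, the deposited q values of the authors, other filters and pseudocounts and fits of the compared groups alone kept the direction of the median change from 0 h in both materials. At 2 h the median was -1.50 (Micro-TOM) and -1.64 (Micro-TOM-EX) after scaling and -1.53 in both in the authors' deposited table. From 2 h to 8 h, scaling gave 14 higher, 12 lower and a median of 0.30 in Micro-TOM, and 12, 11 and 0.12 in Micro-TOM-EX; the authors' table gave 9 lower and 0.32 in Micro-TOM, and 11 higher, 8 lower and 0.065 in Micro-TOM-EX. A 2-fold minimum left 9 higher and 1 lower in Micro-TOM and 8 and 0 in Micro-TOM-EX, and the compared groups alone gave 5 lower in Micro-TOM. With only chloroplastic or plastid names, 1 was lower in Micro-TOM-EX. The count higher at 8 h against 0 h was 1 in Micro-TOM (5 FPKM filter, authors' table, chloroplastic or plastid names) or 0 (2-fold), and 1 in Micro-TOM-EX (compared groups alone, 2-fold, authors' table, chloroplastic or plastid names). With mitochondrial-named genes 1 was higher in Micro-TOM-EX at 2 h. Between materials at 0 h, 0 were lower with the compared groups alone, the 2-fold minimum and the authors' table; at 2 h, 1 was higher (compared groups alone, authors' table) or 0 (2-fold). Mitochondrial S31 (LOC101250551) in Micro-TOM-EX at 2 h changed by -0.01, but by 0.40 after scaling (limma adjusted p = 0.024). The cause of these shifts was not tested. All-gene shares are not given beside the counts of this section, so the counts show only how the calls move between settings.

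Leaving out single libraries gave, in Micro-TOM, 43 to 43 lower, 0 to 0 higher and medians of -2.01 to -1.76 at 2 h; 36 to 38 lower, 1 to 2 higher and -1.40 to -1.23 at 8 h; and 24 to 25 higher, 2 to 5 lower and 0.55 to 0.79 from 2 h to 8 h. In Micro-TOM-EX it gave 41 to 41 lower, 0 to 0 higher and -2.32 to -1.83; 38 to 39 lower, 1 to 3 higher and -1.64 to -1.46; and 17 to 29 higher, 1 to 4 lower and 0.27 to 0.79. Between materials it gave 0 to 1 higher, 0 to 1 lower and 0.06 to 0.29 at 0 h; 0 to 2 higher, 0 to 7 lower and -0.29 to 0.08 at 2 h; and 0 to 1 higher, 0 to 0 lower and -0.11 to 0.07 at 8 h. For the difference of response it gave 0 to 0 higher, 0 to 5 lower and -0.41 to -0.05 at 2 h, and 0 to 1 higher, 0 to 0 lower and -0.32 to -0.08 at 8 h.

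With the replicate block, 43 members fell at 2 h in Micro-TOM and 41 in Micro-TOM-EX, and 22 rose from 2 h to 8 h in Micro-TOM-EX. The replicate block within each hour left 0 lower between materials at 0 h, and moved no other count by more than 1.5 times. Depth is not given in the sources used here, and low levels such as those of S1 or 50S protein 5 alpha may rest on few fragments.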
